A study of Mus musculus with 6 samples.

Results

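The cytosolic ribosome is built from a small (40S) and a large (60S) subunit, each made of ribosomal RNA and of ribosomal proteins that are encoded by separate nuclear genes. Most of these proteins occur once per ribosome, and their mRNAs are short, abundant and translated under the control of mTORC1 through a pyrimidine-rich start, the 5′ TOP motif. Their genes are usually expressed together, and growing cells devote a large part of their translation machinery to making them. Members were found by symbol: rows named Rpl or Rps followed by a number, Rplp0 to Rplp2 and Rpsa, without pseudogene names, ribosomal S6 kinases and the Rps19 binding protein, and with a summed count of at least 15 over the 6 samples. Of 104 matching symbols, 6 pseudogenes and 11 kinase or binding-protein genes were left out, and 84 of the remaining 87 reached the minimum, out of 24421 genes in the table. By symbol they comprised 33 small-subunit and 51 large-subunit genes.

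The cells were endothelial cells isolated from retinas of 7-day-old mouse pups (BL6/CD1, mixed), and tamoxifen had been injected on postnatal day 1. The 3 Smad4-iECKO samples carried Smad4f/f together with Cdh5-CreERT2, in which the promoter of an endothelial cadherin gene drives a Cre that tamoxifen activates, so the deletion is directed at endothelial cells. The 3 control samples carried Smad4f/f, the same floxed allele, and the labels list no Cre for them. Smad4 encodes the shared partner of the receptor-activated SMADs in BMP and TGF-beta signalling, and the comparison asks how its loss from the endothelium alters RNA levels. The labels do not say whether a sample was 1 pup or a pool, so every p-value reflects sample-to-sample spread, which may be technical.

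Total counts ran from 2233360 in Smad4-iECKO replicate 2 to 23164952, and the other 4 libraries lay between. Smad4 itself, in TMM-scaled CPM (reads normalised to library size), was at 109.5, 152.9 and 157.5 in Smad4f/f replicates 1, 2 and 3 and at 128.2, 93.9 and 133.9 in the Smad4-iECKO replicates, so the groups overlapped in the gene that the labels say was deleted. All 18 endothelial markers were detected in every library, with 0.210% to 1.03% of the counts of the controls and 0.357% to 0.688% of those of Smad4-iECKO. Rod photoreceptor markers, 14 genes of a neuron that should be absent from a pure endothelial preparation, held 0.751% to 1.41% and 0.669% to 1.15% of counts. In RNA from such a mixture, fewer cells of a type and less RNA per cell cannot be told apart. A pair of libraries stood apart from the other 4 in the results that follow: Smad4f/f replicate 1 and Smad4-iECKO replicate 2, the least deep. Values are given with and without them for many of the statements that rest on them.

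As a share of all gene counts, the 84 ribosomal protein genes held 2.46%, 0.973% and 0.853% in Smad4f/f replicates 1, 2 and 3. In the Smad4-iECKO replicates they held 0.866%, 1.12% and 0.835%. The first control library was 2.19 times as high as the next library, and the other 5 lay within 0.835% to 1.12%. The group means were 1.43% ± 0.893 (SD, n = 3) in Smad4f/f and 0.941% ± 0.157 (SD, n = 3) in Smad4-iECKO, and the groups overlapped. Without Smad4f/f replicate 1 the control mean was 0.913%, just below the Smad4-iECKO mean. The balance of the subunits hardly moved: small-subunit genes made up 41.1% to 44.4% of the family's counts in every library.

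**Figure D1:**
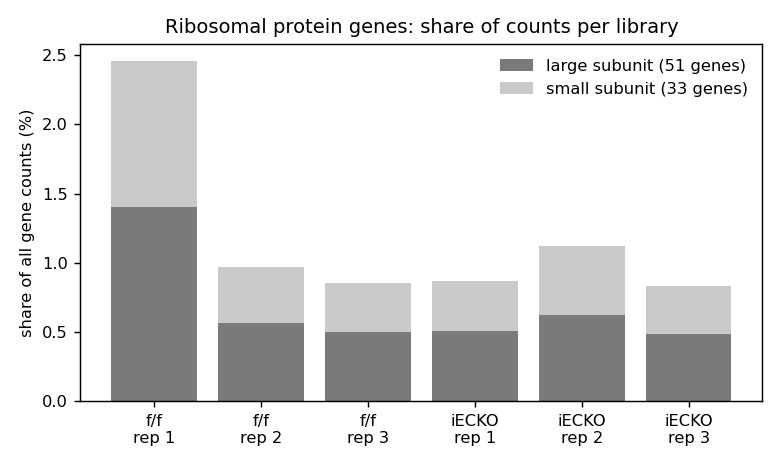
Share of all gene counts (%) held by the 84 ribosomal protein genes in each library, stacked by subunit; each bar is 1 library. Smad4f/f replicate 1 stands at 2.46%, and the other 5 libraries lie between 0.835% and 1.12%.

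The same library was the highest of the 6 in 78 of the 82 members with enough reads to be tested, a share of 95.1%, against 26.5% of all 14362 tested genes. It exceeded the next library by more than 2-fold in 45 members (3.17% of all tested genes did so). The 4 exceptions were Rpl3, Rpl10a and Rps14, which were highest in Smad4-iECKO replicate 2, and Rpl3l, highest in Smad4f/f replicate 3. On the log2(CPM + 1) scale the members of Smad4f/f replicate 1 exceeded the mean of the 4 libraries that did not stand apart by a median of 1.55, against 0.01 for all tested genes. This excess ranged from -1.14 for Rpl3l to 2.67 for Rpl38. Among those 4 libraries, which came from both groups, the ratio of the highest to the lowest CPM had a median of 1.26 over the members, against 1.46 over all tested genes. These libraries were what remained once the outlying pair was set apart with the values in view. Members and all genes were also not matched for level, so the ratios do not show that the family was steady.

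In Smad4-iECKO replicate 2 the members were spread on both sides of the other libraries, as were genes in general. Its excess over the same 4 libraries had a median of 0.21 and ran from -3.53 for Rpl39 to 1.59 for Rplp2. It lay above all 4 libraries in 40 members and below all 4 in 29, and 35.9% and 44.3% of all tested genes did so, so the spread is not particular to the family. A count of 3 in this library equals 1.39 CPM, against 0.123 to 0.239 CPM in the others, so its low values are the least precise.

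**Figure D2:**
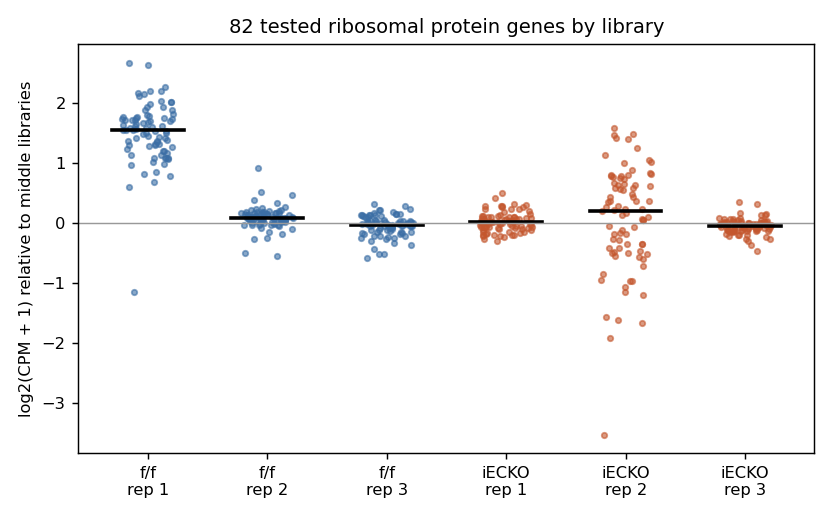
The 82 tested ribosomal protein genes in each library, as log2(CPM + 1) minus the mean of the 4 libraries that did not stand apart; each point is 1 gene and the bar is the median. The cloud of Smad4f/f replicate 1 is shifted up by a median of 1.55, whereas that of Smad4-iECKO replicate 2 is centred near the others (0.21) but widely spread.

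No ribosomal protein gene passed the test between the groups. In edgeR's quasi-likelihood test on all 6 samples 0 of 82 members, and 0% of all tested genes, had a Benjamini-Hochberg adjusted p under 0.05. The smallest edgeR adjusted p was 1.00 among members and 0.864 over all genes. An unadjusted p under 0.05 was reached by 2 members, among them Rpl29, both lower in Smad4-iECKO, against 1.31% of all tested genes and 0.39% in that direction. That is 188 genes in all. The count of members moved with single libraries: leaving out Smad4f/f replicate 2 gave 22 (2.06% of all genes), leaving out its replicate 3 gave 22 (0.958%) and leaving out its replicate 1 gave 0 (1.68%). Leaving out Smad4-iECKO replicate 2 gave 0 (1.55%), and its replicate 3, 1 (1.7%). With the title prefix as a block it was 7 (2.11%). In DESeq2 on the same 6 samples 0 of 84 members and 0.0705% of all genes were called. There 9 members, among them Rpl36a, Rps26, Rpl17, Rps21, Rpl29, Rps28 and Rpl27, had an unadjusted p under 0.05, all lower in Smad4-iECKO, against 2.16% of all genes and 0.529% in that direction.

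The fitted directions were nearly uniform but changed when the 1 high control library was left out. The log2 fold change, Smad4-iECKO over Smad4f/f, was negative in 80 of 82 members, against 51.8% of all tested genes, with a median of -0.62 against -0.02. It ran from -1.59 for Rpl36a to 0.28 for Rpl3l. Without Smad4f/f replicate 1, 39 of 82 members were negative and 43 positive (49.4% of all genes were negative), with a median of 0.02 and a range from -0.70 for Rpl29 to 0.88 for Rpl34. Leaving out Smad4-iECKO replicate 2 instead gave 80 negative members (55.0% of all genes were negative) and a median of -0.80 against -0.03. With both libraries left out, 60 of 82 were still negative, against 52.0% of all genes, with a median of -0.09 against -0.01 for all genes. The change in the median when Smad4f/f replicate 1 was left out was similar in both subunits: from -0.70 to 0.03 over 33 small-subunit genes and from -0.55 to 0.00 over 49 large-subunit genes.

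**Figure D3:**
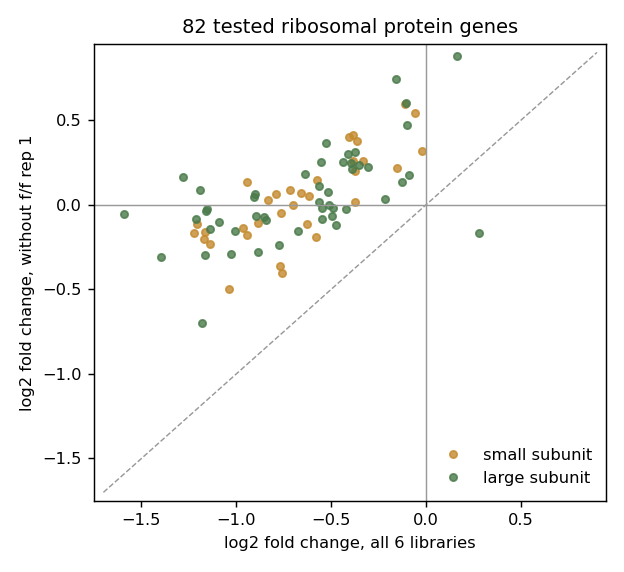
Log2 fold change (Smad4-iECKO over Smad4f/f) of the 82 tested ribosomal protein genes with all 6 libraries on the horizontal axis and without Smad4f/f replicate 1 on the vertical axis; each point is 1 gene, coloured by subunit, and the dashed line marks equal values. With all libraries 80 genes lie below 0, and without the 1 library 39 do.

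The titles of 2 samples in each group start with Lit38 and that of 1 with Lit40, and the labels do not say what these mean. Among the Lit38 samples alone, both groups have 2 libraries and Smad4f/f replicate 1 is a control. There 81 of 82 members were lower in Smad4-iECKO, against 51.1% of all genes, with a median of -1.04 against -0.01. Of these, 11 had an unadjusted edgeR p under 0.05 (4.13% of all genes did) and 0 an adjusted one. In the Lit40 pair, Smad4-iECKO replicate 2 against Smad4f/f replicate 2, 45 of the 80 members with reads in both were higher and 35 lower. The median log2 ratio was 0.17, against 0.06 over all tested genes. A fold in that pair has no replicate check.

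The 3 lowest fold changes belonged to large-subunit genes. Rpl36a (chrX:134585654-134588062, plus strand, mm10) encodes a 60S protein near the tRNA exit site. It was at 140.1, 23.1 and 18.4 CPM in Smad4f/f replicates 1 to 3 and at 29.5, 11.6 and 17.9 CPM in Smad4-iECKO. One control library was 4.74 times the next, and the other 5 libraries overlapped. The log2 fold change was -1.59 ± 0.75 (SE; edgeR adjusted p = 1.00) and -0.06 without that library. Rpl38, whose mutation in mice alters the body plan, was at 296.9, 46.1 and 49.7 CPM against 53.8, 73.4 and 35.2 CPM. Here again a single control library was high and the rest overlapped: the log2 fold change of -1.28 ± 0.70 (SE) became 0.16 without it and -0.13 without both outlying libraries. Rpl39, which lines the peptide exit tunnel, was at 176.4, 41.7 and 38.6 CPM against 50.7, 2.79 and 41.3 CPM. Its lowest value rests on 6 counts, and its log2 fold change went from -1.40 to -0.31 without Smad4f/f replicate 1 and to 0.17 without both outlying libraries. Rps26, an mRNA channel protein of the 40S subunit, was at 227.9, 53.7 and 53.5 CPM against 59.5, 27.9 and 54.7 CPM. Its log2 fold change was -1.22, and -0.17 without Smad4f/f replicate 1. The next lowest, Rpl17 and Rps21, had log2 fold changes of -1.21 each, and -0.08 and -0.12 without the high control library.

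All 3 Smad4-iECKO libraries lay below all 3 Smad4f/f libraries in 4 of 82 tested members, among them Rpl27 and Rps12, against 2.83% of all tested genes. In no member did they all lie above, against 2.49% of all genes. Rpl27, a 60S protein, was at 90.0, 31.03 and 28.5 CPM against 27.5, 21.4 and 24.1 CPM. Rps12, a 40S protein, was at 404.3, 129.7 and 125.4 CPM against 116.5, 119.0 and 120.9 CPM. In both genes 2 of the 3 controls lay close to the Smad4-iECKO libraries, and Smad4f/f replicate 1 was high. Rpl29 (chr9:106429454-106431568, plus strand, mm10), a 60S protein also known to bind heparin, had the smallest unadjusted edgeR p of the tested members, at 0.0449. It was at 62.4, 41.9 and 14.7 CPM against 22.7, 13.9 and 15.5 CPM, so the groups overlapped: Smad4f/f replicate 3 lay among the Smad4-iECKO libraries. Its log2 fold change was -1.18 ± 0.51 (SE) and -0.70 without Smad4f/f replicate 1.

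The P stalk recruits translation factors to the 60S subunit, and all 3 of its genes were highest in Smad4f/f replicate 1. Rplp0 was at 768.4, 349.5 and 317.2 CPM against 275.7, 300.3 and 324.3 CPM, with a log2 fold change of -0.67, and -0.16 without that library. Rplp1 was at 267.6, 111.2 and 100.02 CPM against 107.4, 159.9 and 108.0 CPM. Rplp2 was at 276.5, 101.1 and 87.6 CPM against 78.9, 268.2 and 88.5 CPM, so that 1 library was high in each group and the log2 fold change was -0.10. That fold change was 0.60 without Smad4f/f replicate 1 and -0.92 without Smad4-iECKO replicate 2. The stalk genes together held 0.132%, 0.0589% and 0.0491% of counts in Smad4f/f, against 0.0471%, 0.0702% and 0.0515% in Smad4-iECKO.

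The same pattern of 1 high library in each group marked the members with fold changes nearest to 0. Rpsa, a 40S protein also known as the laminin receptor precursor, was at 574.6, 217.2 and 229.3 CPM against 199.4, 573.1 and 209.0 CPM. Rps6, the 40S protein phosphorylated by S6 kinases, was at 217.5, 113.9 and 115.9 CPM against 93.0, 216.6 and 94.6 CPM. Rpl3, which helps form the peptidyl transferase centre, was at 421.3, 231.1 and 291.2 CPM against 205.0, 427.2 and 233.4 CPM. In all 3 the high libraries were Smad4f/f replicate 1 and Smad4-iECKO replicate 2, at nearly equal levels, and the other 4 lay below. The log2 fold changes were -0.06, -0.15 and -0.13, with 1 high library on each side. They were 0.54, 0.22 and 0.13 without Smad4f/f replicate 1, -0.76, -0.69 and -0.55 without Smad4-iECKO replicate 2, and -0.15, -0.32 and -0.27 with both left out. The same pair of libraries was the highest in Rps14, Rpl10a and Rps3, with log2 fold changes of -0.02, -0.09 and -0.39. These were 0.31, 0.18 and 0.41 without the first of the pair, -0.80, -0.46 and -0.92 without the second, and -0.46, -0.19 and -0.11 without both.

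Rpl5 and Rpl11 form, with 5S rRNA, the particle that binds MDM2 when ribosome assembly is disturbed. Rpl5 (chr5:107900502-107909005, plus strand, mm10) was at 340.9, 146.2 and 117.5 CPM against 124.0, 85.1 and 116.9 CPM, and Rpl11 at 271.4, 91.2 and 99.0 CPM against 96.8, 185.0 and 76.5 CPM. The groups overlapped in both genes, and the log2 fold changes were -0.89 and -0.37. They were -0.28 and 0.31 without Smad4f/f replicate 1, -0.77 and -0.85 without Smad4-iECKO replicate 2, and -0.16 each with both left out. Their partner Mdm2 was at 77.9, 92.1 and 71.7 CPM against 111.0, 128.8 and 91.0 CPM, with overlapping groups and a log2 fold change of 0.45 ± 0.28 (SE; edgeR adjusted p = 1.00).

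**Figure D4:**
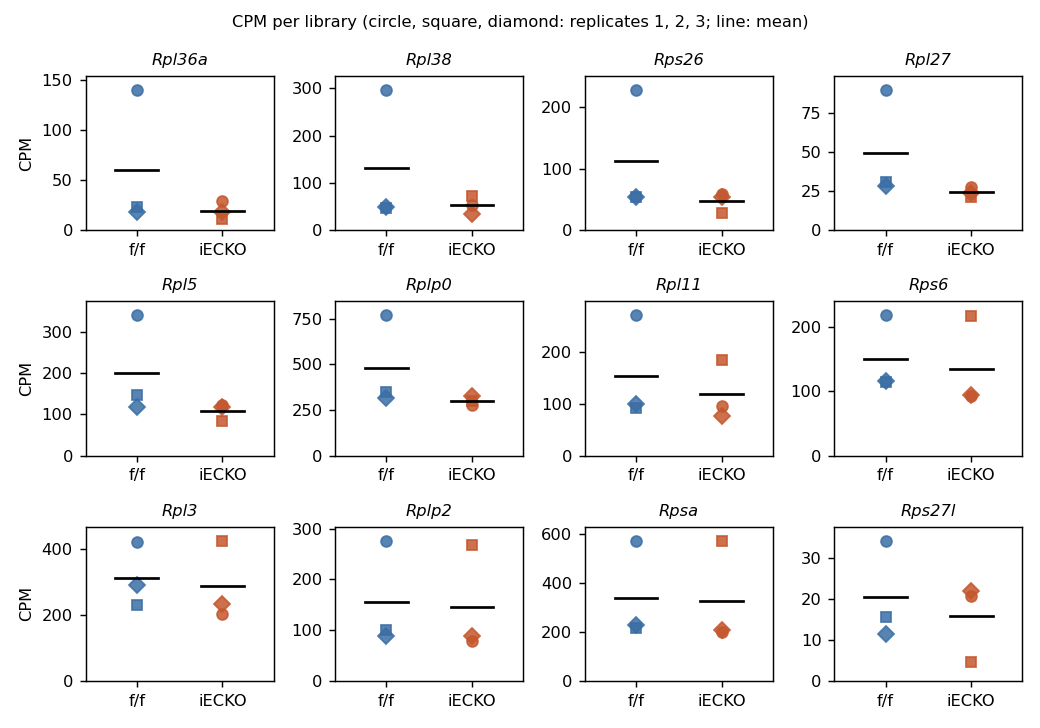
TMM-scaled CPM per library of 12 ribosomal protein genes; circle, square and diamond are replicates 1, 2 and 3 and the line is the group mean. Smad4f/f replicate 1 is the top control point in every panel, and in Rpl3, Rplp2, Rpsa and Rps6 Smad4-iECKO replicate 2 reaches a similar level.

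Among the remaining members fixed by name, the 40S genes Rps19 and Rps24, both mutated in Diamond-Blackfan anaemia, had log2 fold changes of -0.77 and -0.79, and -0.05 and 0.06 without Smad4f/f replicate 1. Rps15 and Rps29 were at -0.61 and -0.96, which became 0.05 and -0.14. On the 60S side Rpl10, Rpl13a, Rpl22, Rpl24 and Rpl41 were at -0.51, -0.39, -0.49, -1.01 and -0.91, and at 0.00, 0.25, -0.02, -0.15 and 0.05 without that library. Rpl10 completes the peptidyl transferase site late in assembly, and Rpl41 encodes one of the shortest known eukaryotic proteins. With both outlying libraries left out, the 9 genes of this paragraph lay between -0.21 for Rpl22 and 0.10 for Rpl24. None passed the test.

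Some members lie outside the standard subunit genes, most of them second copies of a main gene. Rpl22l1, an alternative to Rpl22, held 20.3%, 15.1% and 13.7% of the pair's counts in Smad4f/f, against 15.9%, 19.6% and 15.1% in Smad4-iECKO. The means, 16.4% ± 3.48 and 16.8% ± 2.38 (SD, n = 3 each), differed by less than the spread, while Rpl22l1 itself ran from 13.9 to 53.4 CPM. Rpl36al held 23.6% to 37.4% of its pair with Rpl36a in Smad4f/f and 31.6% to 39.02% in Smad4-iECKO. Rps4l and Rpl37rt, annotated as transcribed processed pseudogenes, stayed at 2.47% to 5.66% and 2.58% to 7.14% of their pairs. Rpl3l, a form known from striated muscle, reached at most 1.099% of its pair with Rpl3. Rpl39l, known from testis, had 19 counts in all, from the 3 Smad4f/f libraries alone, and was too low for the filter of the main edgeR test. Rps27l was at 34.2, 15.6 and 11.4 CPM against 20.8, 4.65 and 21.8 CPM, with a log2 fold change of -0.33 that turned to 0.26 without Smad4f/f replicate 1 and to 0.62 without both outlying libraries. Rpl7l1, also outside the standard subunit genes but paired with no main copy here, was at 85.6, 57.7 and 50.3 CPM against 60.2, 49.3 and 56.7 CPM.

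Some genes of the family were listed at very low levels. Rpl26 was listed at 0 in every library, and Rps27rt (0 counts) and Rpl10l (3 counts) also fell below the minimum. Just inside it were Rpl39l with 19, Rpl30 with 44, Rps27 with 136, Rpl34 with 137 and Rpl3l with 141 counts over the 6 libraries. Rpl30, Rps27 and Rpl34, whose mean levels were 0.518, 1.37 and 1.85 CPM, encode core ribosomal proteins, and 75 other members averaged at least 20 CPM. Ribosomal protein genes have many near-identical processed pseudogenes, and how reads shared by such copies were counted is not given in the sources used here, so the levels of these genes and of all members are uncertain to that extent. In 17 members a gene on the opposite strand overlaps, and 30 hold small nucleolar RNA genes in their bounds. The library kit does not mark strand, so reads of overlapping genes cannot be told apart. Rpl34 and Rpl3l, the 2 members with positive fold changes (0.16 and 0.28), were both near the detection floor, with values from 0.673 to 3.08 CPM and from 0 to 2.84 CPM.

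Per length, levels were compared as counts per kb of merged exons, scaled like TPM to the same total in each library. On this scale Rplp1 was highest, at 1409 ± 534 (SD over 6 libraries), followed by Rplp0 at 1166 and Rps15 at 1163, and Rpl34, Rpl39l and Rpl30 were lowest at 3.44, 1.36 and 0.819. Levels of the top 3 overlapped between libraries. With the length of 1 principal transcript per gene the order at the top changed to Rps9, Rps14 and Rpl7, at 1268, 1200.0 and 1175, so the order of the abundant members depends on the length used.

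Start-site sequences, which the rule did not use, were searched for runs of C or T near the start. RefSeq start sites on GRCm38.p6 were found for 63 of 84 members, with 250 bases before and 50 after the start. A run of at least 8 C or T on the gene's strand within 40 bases of the start occurred in 48 of 63 members (76.2%) and in 32.6% of 27025 genes. CGGAAG, the core of an ETS-family site, occurred on either strand of the 300 bases in 42 members (66.7%) against 18.8% of genes, and TATAAA in 7 (11.1%) against 15.7%. Read on the opposite strand CGGAAG is CTTCCG, whose C and T letters can be part of such a run, so these shares are not independent. Windows of 30 bases around the longest run, in capitals, are shown for the 4 lowest and the 4 highest negative fold changes among genes in that table, so that both ends of the family can be compared.
Rpl36a: ggctctagCCTCTCTCTTTCCgagctgcta
Rpl39: gagtcatccaTCCCCCCCTaagctccgcct
Rpl38: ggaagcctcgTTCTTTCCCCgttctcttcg
Rps26: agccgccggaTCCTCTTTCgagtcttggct
Rplp2: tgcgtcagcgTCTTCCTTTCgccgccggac
Rpl18: tcgcaggccgCTCTTTCCCCgcccactccg
Rpl10a: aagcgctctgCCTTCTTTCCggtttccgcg
Rpsa: ccggccgcccgTCCTTTCgcgctacccggg
The first 4 windows lie at chrX:134585673-134585702 (plus strand), chrX:37085224-37085253 (minus), chr11:114668568-114668597 (plus) and chr10:128626484-128626513 (minus). The last 4 lie at chr7:141447636-141447665, chr7:45718062-45718091, chr17:28328572-28328601 and chr9:120127775-120127804, all on the plus strand. The windows are centred on each gene's longest run, so a run is present by construction. It was 9 to 13 bases long in the first 4 genes and 7 to 10 in the last 4, and the 7 bases of Rpsa fall short of the minimum of 8. Relative to the first base in RefSeq the runs began at 28, -21, -2 and 4 in the first 4 genes. In the last 4 they began at -5, 2, 18 and 21. That of Rpl39 lay before the start, and those of Rpl36a, Rps26, Rpl18, Rpl10a and Rpsa began after the first base. A run near the start is therefore not in itself a TOP motif. A match is a description of the letters, not a mapped start or a bound factor.

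Ribosomal protein transcripts are short, with a median principal transcript of 843 bases against 3066 for the other tested genes. In Smad4f/f replicate 1 other short genes were also high. The median excess over the 4 libraries that did not stand apart was 0.57 for 668 other genes of 0.5 to 1 kb, 0.25 for 2715 of 1 to 2 kb and -0.21 for 4558 over 4 kb, against 1.58, 1.52 and 1.01 for the 44, 22 and 1 members of those lengths. For the 164 other genes under 0.5 kb it was 0.08, against 1.87 for 10 members. As a description across genes within these libraries, which are not independent, the excess had a Spearman rho with length of -0.33 over 82 members and -0.29 over 13760 other genes. In Smad4-iECKO replicate 2 the excess had a Spearman rho with GC content of 0.22 over members and 0.56 over other genes. Endothelial markers were also high in Smad4f/f replicate 1: 13 of 18 were highest there, at 1.03% of counts against 0.210% to 0.688% in the other 5 libraries. Pericyte markers held 0.282% there against 0.0649% to 0.195% in the others. Of the 8 markers, 4 were highest there, among them Rgs5 at 1488 CPM against at most 651.9 CPM. Pdgfrb, Cspg4 and Notch3 were highest in Smad4-iECKO replicate 2, with Notch3 at 694.4 CPM against 174.1 CPM in Smad4f/f replicate 1. Anpep was highest in Smad4f/f replicate 3. The proliferation genes Mki67 and Top2a were at 253.0 and 218.6 CPM in Smad4f/f replicate 1 and at most at 136.8 and 101.1 CPM elsewhere. They were the only 2 of the 8 retinal progenitor markers highest in that library. The part of length, GC content, endothelial or pericyte content or proliferation in the level of the ribosomal protein genes was not tested.

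**Figure D5:**
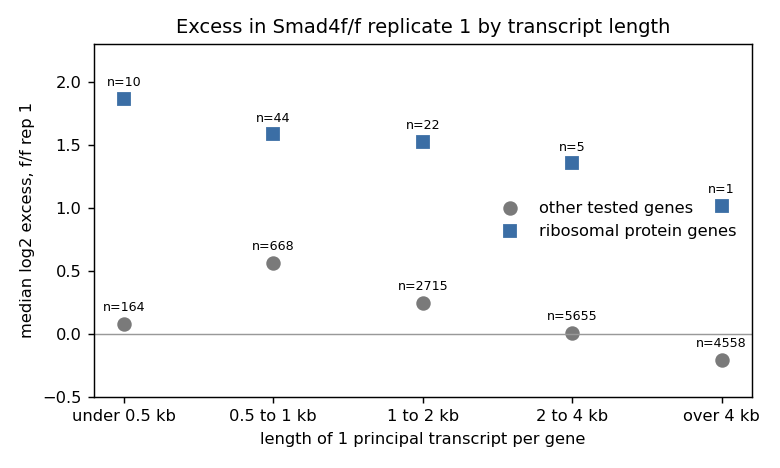
Median log2 excess of Smad4f/f replicate 1 over the mean of the 4 libraries that did not stand apart, by length of the principal transcript (kb), for ribosomal protein genes and for the other tested genes. In each bin the members lie above the other genes, with 1.58 against 0.57 at 0.5 to 1 kb.

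Other genes of the translation pathway are given beside the family, and 0 genes passed the edgeR test in each list in either direction. Of the translation factors and other mRNAs with a TOP motif, 27 of 30 had negative fold changes, with a median of -0.40, and 22 of 30 were negative without Smad4f/f replicate 1, with a median of -0.13. They held 1.26%, 0.841% and 0.807% of counts in Smad4f/f, against 0.713%, 0.669% and 0.797% in Smad4-iECKO, so the groups did not overlap in this sum, though the gap was 0.797% against 0.807%. Nor did they overlap in the sum of microglia and macrophage markers, at 0.00384% to 0.00636% in Smad4f/f and 0.00842% to 0.0131% in Smad4-iECKO. In the sums of the other pathway and marker lists the groups overlapped. Eif3f and Naca had the smallest unadjusted edgeR p of the 30 translation factors and other TOP mRNAs and were named for that. Eif3f, a subunit of the initiation factor that joins the 40S subunit, was at 182.1, 160.4 and 181.5 CPM against 102.7, 73.9 and 148.9 CPM. All 3 Smad4-iECKO libraries were lower than all 3 controls, as in 2.83% of all tested genes. The log2 fold change of Eif3f was -0.68 ± 0.32 (SE; edgeR adjusted p = 1.00) and -0.66 without Smad4f/f replicate 1. Naca, which binds nascent chains at the ribosome, was at 254.2, 125.4 and 111.4 CPM against 112.5, 52.1 and 102.2 CPM, with overlapping groups.

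Genes of ribosome biogenesis had fold changes on both sides of 0: 27 of 57 were negative, with a median of 0.01, and the list held 0.267% to 0.294% of counts in Smad4f/f and 0.292% to 0.310% in Smad4-iECKO. Its members with the smallest p were Noc2l and Nip7. Noc2l was at 220.3 CPM in Smad4-iECKO replicate 2 and at 61.9 to 72.3 CPM in the other 5 libraries, and its log2 fold change of 0.79 was -0.04 without that library. Nip7 was at -0.67, and at -0.24 without both outlying libraries. Of 20 genes of mTORC1 and LARP1, which control translation of TOP mRNAs, 10 were negative, with a median of 0.01. Among these Sesn2, a stress-induced inhibitor of mTORC1, was at 14.5, 14.4 and 19.6 CPM against 17.9, 51.1 and 25.7 CPM, and Larp1b at 12.5, 11.9 and 10.2 CPM against 9.11, 3.72 and 7.49 CPM. The groups overlapped for Sesn2 and not for Larp1b, and neither passed the test. Both were named for having the smallest unadjusted edgeR p of the 20. All Smad4-iECKO libraries lay below all controls, as for Larp1b, in 2.83% of all tested genes. The log2 fold change of Sesn2 was 0.94, and 0.41 without Smad4-iECKO replicate 2. Host genes of small nucleolar RNAs, 11 of 12 of them negative, had a median of -0.27 that became 0.08 without Smad4f/f replicate 1. Gas5, one of these and itself a TOP RNA, was at 174.5, 82.3 and 56.0 CPM against 89.8, 53.5 and 65.1 CPM, and Epb4.1l4aos had a log2 fold change of -0.71. Mitochondrial ribosomal protein genes, which serve the organelle's own ribosome, were negative in 57 of 77, with a median of -0.29 that became -0.06, and 45 of the 77 were highest in Smad4f/f replicate 1. In a list drawn up around RPL5, RPL11 and MDM2, 3 of 7 genes were negative. Bccip, placed in that list, was at a log2 fold change of -0.33, and of -0.04 without Smad4f/f replicate 1.

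The authors' deposited table calls members that the fits on 6 samples do not. Of the 82 members with an adjusted p in the authors' deposited table, 34 were under 0.05, all lower in Smad4-iECKO, against 13.4% of all genes called and 5.69% called lower. Among the smallest adjusted p-values in the authors' deposited table were those of Rpl29 (log2 fold change -0.99, adjusted p 0.0025), Rps4x (-0.70, 0.00395), Rpl27 (-0.88, 0.00483), Rpl5 (-0.78, 0.00713) and Rpl36a (-1.09, 0.00969). The count table has 18 columns, 3 per sample, and the 3 columns of a sample held identical values in every gene. Entering all 18 columns into DESeq2 as if they were separate samples called 36 members, all lower, against 12.1% of all genes and 4.79% in that direction, whereas 1 column per sample called 0 members. Log2 fold changes of a DESeq2 fit with a fold change prior on all 18 columns differed from those of the authors' deposited table by a median of 0.0021 over all genes and 0.0022 over the members. The number of columns the authors fitted is not given in the sources used here.

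Library sizes were also set to the summed counts of the family, which centres the members near 0 by construction and so says nothing of the direction of the whole. On that scale the median of all tested genes was 0.29, the members ran from -0.63 for Rpl36a to 0.79 for Rpl34, and 0 members passed the edgeR test.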

How the data were processed

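The authors' deposited count table held raw whole-number counts for each gene in 18 columns. The authors' deposited comparison held a mean normalized signal, log2 fold changes with standard errors, a test score and p-values, per the file headers. Libraries were made with Illumina TruSeq RNA v2, per the labels' protocols. STAR, DESeq2 and mm10 are named without versions, per the submitters' processing notes. Counter and annotation: not given in the sources used here. Groups follow the genotype label, and replicate numbers, set by accession order, pair nothing.

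Computed here were edgeR 4.0.16 quasi-likelihood tests (R 4.3.3, TMM, filterByExpr with minimum count 10 and minimum total 15, 14362 genes, Benjamini-Hochberg adjusted p under 0.05 over all genes) on 1 column per sample. Alternatives used DESeq2 1.42.0 and, for voom, limma 3.58.1. The standard error was the log2 fold change divided by the square root of F. The tests were tested on simulated data. Lengths and positions came from GENCODE M21 (mm10), and start sites from RefSeq (GRCm38.p6). Floors of 3 counts cover counting error only. Figures used matplotlib 3.10.9.

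Members and gene lists were chosen with earlier results of these data known. Named genes were a fixed set of 26 members, the 5 lowest and 5 highest fold changes and the 5 smallest p-values. Members with positive fold changes and the 3 highest and 3 lowest levels per length were added. From each pathway list the 2 genes with the smallest edgeR p were taken. Rps12, Rps28, Rps4x, Rps9, Rpl7, Rgs5, Mki67 and Top2a were picked with their values in view. A few members are not reported here. Markers of pericytes, microglia, erythroid cells, astrocytes and Mueller glia, and retinal progenitors were also summed: in Smad4f/f and Smad4-iECKO they held 0.0649% to 0.282% and 0.111% to 0.195%, 0.00384% to 0.00636% and 0.00842% to 0.0131%, 0.000112% to 0.00514% and 0.000134% to 0.00304%, 0.0758% to 0.147% and 0.0855% to 0.148%, and 0.100% to 0.106% and 0.105% to 0.110% of counts.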

Additional observations from a re-analysis of the deposited data

How the results depend on the processing

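Under edgeR's quasi-likelihood test no gene was called, whichever single replicate was left out and under 10 other settings of scaling, filter, samples, block, thinning and pseudogenes. Genes called numbered 12 with DESeq2, 8 with limma-voom and sample quality weights, 6 with scaling to the summed members and 1 with both outlying libraries left out, an alternative chosen after seeing the data. On all 18 columns DESeq2 called 2235 genes and 36 members, and with a fold change prior, also added after seeing the data, 2178 genes and 36 members, because each sample is then entered 3 times. In the other settings 0 members were called.

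The members' median log2 fold change of -0.62 was -0.0858 with both outlying libraries left out, -0.16 with limma-voom and quality weights, -1.04 with prefix 38 alone and -0.0405 with scaling to the summed members, where 47 members were negative because that scaling centres them. Leaving out each replicate in turn gave medians from -0.89 to 0.015, 39 to 81 negative members and a ratio of the mean share of counts, Smad4-iECKO over Smad4f/f, from 0.549 to 1.03. The high ends of the median and the ratio came without Smad4f/f replicate 1. No paired analysis was possible because replicate numbers are in accession order. The title prefix as a block gave 81 negative members. Scaling to the endothelial list gave 80 negative members, with a median of -0.64 against -0.33 for all genes.

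Signs of named members also turned. Both outlying libraries left out gave Rpl17 0.0066, Rpl24 0.10, Rpl36a 0.17, Rpl36al 0.0323, Rpl39 0.17, Rpl7l1 0.0884, Rplp1 0.0016, Rps26 0.067 and Rps27l 0.62. Quality weights gave Rpl24 0.0638, Rpl36a 0.0238, Rpl7l1 0.10, Rps27 0.32 and Rps27l 0.59. Scaling to the summed members, which centres them near 0 by construction and so is no sign of unstable directions, gave Rpl10 0.0312, Rpl10a 0.29, Rpl11 0.17, Rpl13a 0.14, Rpl22 0.011, Rpl22l1 0.073, Rpl3 0.23, Rpl7l1 0.23, Rplp1 0.19, Rplp2 0.41, Rps14 0.33, Rps27l 0.33, Rps3 0.20, Rps6 0.24 and Rpsa 0.41. Prefix 38 alone gave Rpl34 -0.24, the prefix block Rpl3l -0.0639, thinning Rps14 0.0215 and Rpsa 0.0414, and upper quartile scaling Rps14 0.0188. Leaving out each replicate gave Rpl10 -0.77 to 0.00022, Rpl10a -0.46 to 0.18, Rpl11 -0.85 to 0.31, Rpl13a -0.81 to 0.25, Rpl22l1 -0.90 to 0.25, Rpl3 -0.55 to 0.13, Rpl34 -0.21 to 0.88, Rpl38 -1.69 to 0.16, Rpl3l -0.16 to 1.15, Rpl41 -1.23 to 0.0481, Rpl7l1 -0.37 to 0.0353, Rplp1 -0.61 to 0.23, Rplp2 -0.92 to 0.60, Rps14 -0.80 to 0.31, Rps15 -0.89 to 0.0511, Rps24 -1.12 to 0.0645, Rps27l -0.62 to 0.26, Rps3 -0.92 to 0.41, Rps6 -0.69 to 0.22 and Rpsa -0.76 to 0.54. The causes were not tested. The depth of Smad4-iECKO replicate 2 limits members under about 1.39 CPM.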
